A study of Mus musculus with 15 samples.

Results

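The genes described here make cholesterol or control its making through the transcription factor SREBP2. They were 28 genes listed by name, chosen with earlier results of these data known. The list holds 21 enzymes of the pathway from acetyl-CoA to cholesterol, 6 genes of the SREBP2 control circuit and the sterol carrier gene Stard4. All 28 were found in the count table of 55486 genes, and all 28 were among the 14843 genes that passed the filter on low counts. The libraries were bulk RNA-seq of macrophages sorted by flow cytometry from mouse primary brain tumours (gliomas). In all of them PDGFB had been expressed in Nestin-positive progenitor cells of Ink4a/Arf-knockout mice, the PDG-Ink4a model, and no tumour-free control group was analysed here. Microglia, the brain's resident macrophages, gave 4 libraries without lipid load and 4 lipid-laden ones. Monocyte-derived macrophages (MDM), whose precursors arrive in the blood, gave 4 without lipid load and 3 lipid-laden ones. Not given in the sources used here are the age and sex of the mice, any treatment, and how lipid load was stained and gated. Libraries carry the numbers 221, 224, 431 and 718, and values below are always in that order, with lipid-laden MDM lacking number 431. The labels do not say whether the libraries of a group came from separate mice, so p-values measure the spread between these libraries.

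Cells make cholesterol from acetyl-CoA in a long chain of enzymes of the cytosol and the endoplasmic reticulum. The early part gives mevalonate and isoprenoids, which also serve protein prenylation, and the late part turns lanosterol into cholesterol in steps that use oxygen. When sterol in the endoplasmic reticulum is low, SCAP carries SREBP2 to the Golgi, where a pair of proteases releases the part that enters the nucleus and switches on the pathway. When sterol is high, INSIG proteins hold SCAP back, and oxysterols activate LXR, which drives cholesterol efflux. Macrophages that take up myelin or dying cells receive cholesterol from outside.

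Levels are CPM, read counts relative to the library total as scaled by edgeR's TMM method, with mean ± SD over libraries. Differences are log2 fold changes with a standard error (SE) from a single edgeR quasi-likelihood fit of all 15 libraries. A gene was called at a Benjamini-Hochberg adjusted p under 0.05 over all 14843 genes. Total counts per library ran from 7798952 to 11419338.

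The labels were checked against markers of the cell types, given as the lowest and highest sum in any library. The 10 microglia markers summed to 10400 to 16000 CPM in non-lipid-laden and 6660 to 17400 CPM in lipid-laden microglia. They summed to 2570 to 4080 CPM in non-lipid-laden MDM but to 7140 to 10800 CPM in lipid-laden MDM. All 3 lipid-laden MDM libraries thus lay above each of the non-lipid-laden MDM libraries in microglia markers. Number 221 was the lowest in each of the 4 groups, most so in lipid-laden microglia (6660 CPM, against 13000 to 17400 CPM in the other 3). Without both lipid-laden libraries of that number the called members below numbered 10 (not 9) by origin without lipid load, 3 (not 6) for lipid load in MDM, 2 (not 3) for the difference of effects, and 0 in the other contrasts as with them. The 10 MDM markers summed to 258 to 411, 290 to 734, 3170 to 3860 and 1320 to 1660 CPM in non-lipid-laden microglia, lipid-laden microglia, non-lipid-laden MDM and lipid-laden MDM. The 10 dendritic cell markers summed to 69.0 to 131, 36.4 to 94.9, 1210 to 2770 and 209 to 257 CPM in the same order. The 10 glioma and progenitor markers summed to 153 to 482, 206 to 546, 15.7 to 28.6 and 88.5 to 177 CPM. The 12 cell cycle genes summed to 854 to 1490, 1260 to 1860, 378 to 583 and 752 to 1300 CPM, and 12 genes of hypoxia and glycolysis to 3540 to 5360, 5200 to 8120, 3810 to 4350 and 3820 to 4640 CPM. Of the 10 oligodendrocyte markers, which summed to 155 to 246 CPM in every group, Opalin had 0 counts in all 15 libraries and Mog 0 outside lipid-laden MDM. The 8 astrocyte markers summed to 57.9 to 196 CPM and the 10 T and NK cell markers to at most 179 CPM. In such bulk libraries fewer cells of a type and less RNA per cell cannot be told apart.

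**Figure D1:**
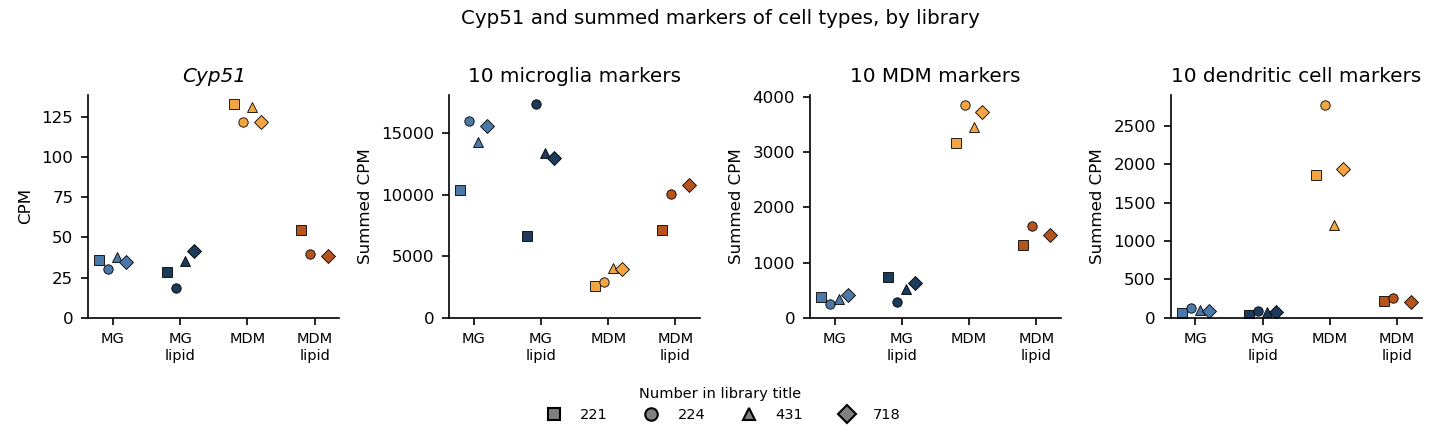
Level of Cyp51 (CPM, left) and summed CPM of 10 microglia, 10 MDM and 10 dendritic cell markers in each of the 15 libraries, by group (MG, microglia; MDM, monocyte-derived macrophages; lipid, lipid-laden). In the 4 non-lipid-laden MDM libraries Cyp51 lay between 122 and 133 CPM and the dendritic cell marker sum between 1210 and 2770 CPM. A link between them was not tested.

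Per kilobase of exon, which allows a rough comparison between genes, the levels of the members spanned a wide range. The length holds the exon bases of all annotated transcripts of a gene, whether expressed here or not, so the order also depends on the annotation. In non-lipid-laden microglia Ebp, a sterol isomerase of the late pathway, stood highest with 43.9 CPM per kb. Acat1, the mitochondrial thiolase that also serves ketone and isoleucine breakdown, followed with 33.4 and Pmvk, phosphomevalonate kinase, with 26.9 CPM per kb. Srebf2 itself was at 1.62, and its escort Scap at 3.06 CPM per kb. In non-lipid-laden MDM the order changed at the top: Pmvk led with 76.3, then Ebp with 51.9, Insig1 with 39.8, Acat1 with 39.6 and Cyp51, lanosterol demethylase, with 28.8 CPM per kb. Fdps, farnesyl diphosphate synthase, had only 88 counts over all 15 libraries, between 0 and 31 per library. The GENCODE M21 annotation places 26.7% of its exon bases also in exons of Gm43738 on the same strand, which had 0 counts. Whether the counting left out reads shared by these genes was not tested, and Fdps is not described further.

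Non-lipid-laden MDM were compared with non-lipid-laden microglia to show how the pathway differs by origin apart from lipid load. Of the 28 members, 8 were higher in MDM and 1 was lower, Insig2, while 10.7% of all genes tested were higher and 12.5% lower (23.2% in all). The median log2 fold change was 0.25 over the members and -0.12 over all genes, and 19 of the 28 were positive against 43.8% of all genes. The higher members lay at separate places of the pathway: 3 of 6 mevalonate and isoprenoid enzymes (Pmvk, Mvd, Idi1), 2 of 9 late enzymes (Cyp51, Lbr), Srebf2 and Insig1 of the control circuit, and Stard4. None of the 3 enzymes from acetyl-CoA to HMG-CoA (Acat1, Acat2, Hmgcs1) and none of the 3 from farnesyl diphosphate to lanosterol (Fdft1, Sqle, Lss) passed.

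Cyp51, which removes a methyl group from lanosterol in the oxygen-using late pathway (ENSMUSG00000001467, chromosome 5, 4081145 to 4104746), was at 133, 122, 131 and 122 CPM in non-lipid-laden MDM. In non-lipid-laden microglia it was at 36.0, 30.6, 37.6 and 34.9 CPM. The groups lay far apart, and the MDM libraries differed from each other by little (127 ± 5.76 against 34.8 ± 2.99 CPM, SD, n = 4 each). The log2 fold change was 1.87 (SE 0.21, edgeR adjusted p = 1.6e-05). Pmvk, which adds the second phosphate to mevalonate (ENSMUSG00000027952, chromosome 3, 89454541 to 89469013), was at 129, 114, 132 and 148 CPM in MDM and at 53.2, 51.6, 40.9 and 38.6 CPM in microglia. Each MDM library again lay above each microglial library (1.50, SE 0.20, edgeR adjusted p = 5.35e-05).

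Srebf2, which encodes SREBP2 itself (ENSMUSG00000022463, chromosome 15, 82147181 to 82205379), was at 54.1, 74.6, 34.6 and 38.5 CPM in MDM. In microglia it was at 9.40, 14.8, 14.4 and 7.84 CPM, so the lowest MDM library was above the highest microglial one. The log2 fold change was 2.12 (SE 0.36, edgeR adjusted p = 0.000493). Lbr, a nuclear envelope protein that is also a sterol reductase (ENSMUSG00000004880, chromosome 1, 181815335 to 181843046), was at 69.5, 94.3, 62.8 and 68.7 CPM in MDM and at 21.7, 31.0, 32.2 and 35.5 CPM in microglia (1.30, SE 0.24, edgeR adjusted p = 0.00109). Tm7sf2, which encodes the other enzyme for the same reduction, averaged 13.0 ± 4.79 CPM in MDM against 12.4 ± 4.16 CPM (0.06, SE 0.48, edgeR adjusted p = 0.949). Of the pair of sterol reductases, Lbr alone passed, and the difference between the pair was not tested. Of the exons of Tm7sf2, 12.1% are also exons of Vps51 on the same strand.

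Up to 250 bases before the RefSeq start site are shown for the 4 members with the smallest p in this comparison. Hmgcs1 is shown beside them, a member not called there and the only one whose window held the exact core described below. They are RefSeq sequences of build GRCm38.p6, each 5′ to 3′ on the strand of its gene. Where an annotated exon of the gene reaches into the 250 bases, the sequence stops before it. Cyp51 is at chr5:4104747-4104947 (minus strand), Pmvk at chr3:89454291-89454540 (plus), Srebf2 at chr15:82147019-82147180 (plus), Lbr at chr1:181842402-181842651 (minus, within an intron of its longer transcripts) and Hmgcs1 at chr13:119690101-119690350 (plus). Capitals mark matches on either strand of the core of the sterol regulatory element to which SREBP2 binds (TCACNCCAC), a looser form of it (ATCACCNCA) and the CCAAT box (CCAAT) of the factor NF-Y, with which SREBP2 often works.
Cyp51: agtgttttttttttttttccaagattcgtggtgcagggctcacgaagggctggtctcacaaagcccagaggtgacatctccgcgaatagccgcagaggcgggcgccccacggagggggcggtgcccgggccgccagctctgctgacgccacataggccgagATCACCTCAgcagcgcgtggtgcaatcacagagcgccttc
Pmvk: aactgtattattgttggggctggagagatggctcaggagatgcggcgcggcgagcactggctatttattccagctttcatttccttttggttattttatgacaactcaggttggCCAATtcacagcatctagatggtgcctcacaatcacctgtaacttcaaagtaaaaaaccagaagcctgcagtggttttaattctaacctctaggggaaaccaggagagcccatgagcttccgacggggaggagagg
Srebf2: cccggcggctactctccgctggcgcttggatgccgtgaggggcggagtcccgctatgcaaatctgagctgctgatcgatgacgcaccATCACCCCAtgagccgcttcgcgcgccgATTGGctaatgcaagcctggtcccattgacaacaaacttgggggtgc
Lbr: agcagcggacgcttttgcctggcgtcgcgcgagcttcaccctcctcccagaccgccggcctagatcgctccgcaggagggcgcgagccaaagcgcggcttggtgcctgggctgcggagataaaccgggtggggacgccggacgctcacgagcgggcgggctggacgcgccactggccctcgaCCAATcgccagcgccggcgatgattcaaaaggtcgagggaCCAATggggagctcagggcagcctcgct
Hmgcs1: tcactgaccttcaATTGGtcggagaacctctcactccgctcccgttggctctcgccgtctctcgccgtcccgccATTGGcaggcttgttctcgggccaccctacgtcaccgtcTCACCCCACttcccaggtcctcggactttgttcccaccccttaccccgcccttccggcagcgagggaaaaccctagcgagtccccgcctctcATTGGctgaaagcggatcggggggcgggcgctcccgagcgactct
RefSeq promoters of 300 bases, 250 before and 50 after the start, were found for 23 of the 28 members, in 29 windows. The core matched in 1 member window, that of Hmgcs1, where it starts 137 bases before the start site. It matched in 1.24% of the 32851 windows of all genes. The looser form, chosen after the sequences were seen, matched in Cyp51 (89 bases before its RefSeq start) and Srebf2 (163 bases before), and in 0.782% of all windows. A CCAAT box on either strand was in 19 of the 29 member windows (65.5%), against 37.4% of all windows, and in 19 of the 23 genes. The 4 genes without any were Acat2, Scap, Mbtps1 and Mbtps2. The box of Cyp51 starts 29 bases before its RefSeq start, within exon bases that the sequence shown above leaves out. Hmgcs1, whose window holds the exact core, averaged 40.9 ± 7.62 CPM in MDM against 45.2 ± 7.92 CPM in microglia (-0.14, SE 0.23, edgeR adjusted p = 0.707). Whether any of these matches acts in these cells was not tested.

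Idi1, Mvd and Stard4 were also higher in MDM. Idi1, which isomerises isopentenyl diphosphate (ENSMUSG00000058258, chromosome 13, 8885501 to 8892451), was at 13.9, 12.7, 7.29 and 11.5 CPM in MDM and at 5.48, 2.58, 1.17 and 3.16 CPM in microglia (1.87, SE 0.53, edgeR adjusted p = 0.019). Mvd, mevalonate diphosphate decarboxylase (ENSMUSG00000006517, chromosome 8, 122433601 to 122443422), was at 51.7, 36.7, 51.9 and 38.0 CPM in MDM and at 24.1, 15.1, 29.0 and 29.1 CPM in microglia (0.87, SE 0.27, edgeR adjusted p = 0.0286). Stard4, a carrier that moves sterol between membranes in the cytosol, was at 21.6, 10.4, 34.1 and 15.0 CPM in MDM and at 5.58, 3.01, 0.935 and 8.98 CPM in microglia (2.13, SE 0.64, edgeR adjusted p = 0.0254). For each of these 3 genes no MDM library fell within the range of microglia, but Stard4 varied more than 3-fold among MDM libraries.

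The control circuit moved in opposite directions. Insig1, the INSIG gene that SREBP2 itself drives (ENSMUSG00000045294, chromosome 5, 28071363 to 28078662), was at 132, 148, 123 and 89.1 CPM in MDM and at 51.2, 91.0, 72.3 and 74.0 CPM in microglia (0.77, SE 0.24, edgeR adjusted p = 0.0302). The groups overlapped, since MDM library 718 lay below microglial library 224. Insig2, the other INSIG gene, which is known not to depend on SREBP2 in the same way (ENSMUSG00000003721, chromosome 1, 121304353 to 121332589), was at 39.2, 30.0, 30.4 and 27.4 CPM in MDM. In microglia it was at 90.2, 56.2, 44.3 and 58.3 CPM, so each MDM library lay below each microglial one (-0.97, SE 0.25, edgeR adjusted p = 0.011). Of the other 3, Scap was at 22.8 ± 2.34 in MDM and 22.7 ± 2.43 CPM in microglia (0.00, SE 0.31). Mbtps1, the site-1 protease, averaged 57.3 ± 9.26 CPM in MDM against 82.3 ± 8.08 CPM (-0.52, SE 0.20, edgeR adjusted p = 0.0776). Mbtps2, the site-2 protease, averaged 13.2 ± 0.642 CPM in MDM against 22.5 ± 9.70 CPM (-0.77, SE 0.40, edgeR adjusted p = 0.182). Of the exon bases of Mbtps2, 28.4% are also exons of Yy2 on the same strand, which had 0 counts. Whether the counting left out reads shared by Mbtps2 and Yy2 was not tested, which limits every value of Mbtps2 given here.

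The remaining enzymes did not pass in this comparison. Dhcr7, which reduces 7-dehydrocholesterol to cholesterol at the end of the pathway, had the most negative value among them, with 17.8 ± 5.75 CPM in MDM against 35.0 ± 19.6 CPM in microglia (-0.98, SE 0.36, edgeR adjusted p = 0.0637). Nsdhl (0.92, SE 0.44), Sc5d (0.62, SE 0.28) and Msmo1 (0.59, SE 0.32), further enzymes of the late pathway, had positive values with edgeR adjusted p of 0.145, 0.132 and 0.196. The squalene enzymes Sqle (0.02, SE 0.42), Fdft1 (0.25, SE 0.30) and Lss (-0.88, SE 0.64) had edgeR adjusted p of 0.981, 0.608 and 0.361. Acat1, Acat2, Mvk, Ggps1, Hsd17b7 and Ebp lay between -0.49 and 0.32 with edgeR adjusted p of 0.259 or more.

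Markers of other cells differed between these groups too, and their part in these results was not tested. All 10 MDM markers, 9 of 10 dendritic cell markers and 7 of 10 T and NK cell markers were called higher in MDM. Of 12 hypoxia and glycolysis genes 2 were higher and 3 lower. All 10 microglia markers, 9 of 10 glioma and progenitor markers and 11 of 12 cell cycle genes were called lower. Among non-lipid-laden MDM libraries the dendritic cell sum was lowest in number 431 (1210 CPM) and highest in number 224 (2770 CPM). In those libraries Cyp51 was at 131 and 122 and Pmvk at 132 and 114 CPM. Srebf2 (34.6 and 74.6 CPM) and Lbr (62.8 and 94.3 CPM) were lowest and highest in the same libraries as that sum. Akap9, whose exons on the opposite strand cover 3.8% of the exon bases of Cyp51, averaged 99.2 ± 15.6 CPM in MDM against 113 ± 10.4 CPM in microglia (-0.19, SE 0.15, edgeR adjusted p = 0.411). With single libraries left out, the calls of Cyp51, Pmvk, Srebf2, Lbr, Idi1 and Insig2 held in all 15 fits. Insig1 and Mvd held in 11 and Stard4 in 13 of the 15.

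**Figure D2:**
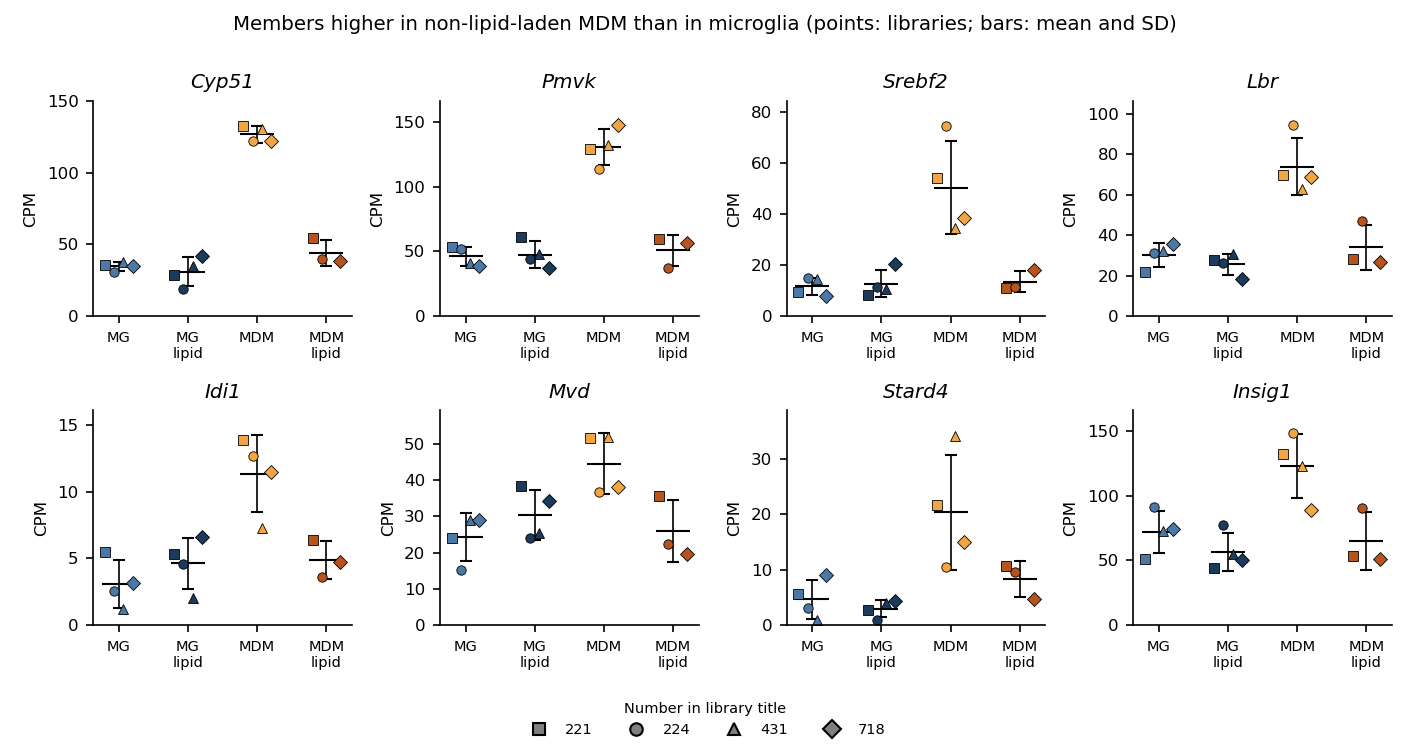
Level in CPM (linear axis from 0) of the 8 members called higher in non-lipid-laden MDM than in microglia, in each library (points, shaped by library number) with the group mean and SD (bars). For Cyp51, Pmvk, Srebf2 and Lbr all 4 non-lipid-laden MDM libraries lie above the 11 libraries of the other groups.

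Lipid-laden MDM were then compared with non-lipid-laden MDM. Of the 28 members 5 fell in lipid-laden MDM (Cyp51, Pmvk, Srebf2, Lbr and Insig1) and 1 rose (Insig2), while 2.96% of all genes fell and 5.21% rose (8.17% in all). In limma-voom the balance over all genes turned, with 713 higher and 747 lower against 773 and 440 in edgeR, and 5 members were lower and none higher. The median log2 fold change was -0.29 over the members and 0.04 over all genes. Positive values were found for 6 of the 28 members, against 52.2% of all genes. These 6 called members are among the 9 of the comparison by origin, with the opposite sign. Both comparisons share the 4 non-lipid-laden MDM libraries, so the values are given side by side and not as independent results.

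Cyp51 was at 54.4, 39.7 and 38.2 CPM in lipid-laden MDM, below the 122 CPM of the lowest non-lipid-laden library (-1.53, SE 0.23, edgeR adjusted p = 0.000895). Pmvk was at 59.2, 37.3 and 56.2 CPM, against at least 114 CPM in the others (-1.36, SE 0.22, edgeR adjusted p = 0.00113). Srebf2 was at 10.9, 11.5 and 18.1 CPM, against at least 34.6 CPM (-1.90, SE 0.39, edgeR adjusted p = 0.00686). For these 3 genes the lipid-laden libraries did not overlap the non-lipid-laden ones, and the call held in all 23 alternative fits. Lbr was at 28.2, 46.8 and 26.9 CPM, against at least 62.8 CPM (-1.12, SE 0.26, edgeR adjusted p = 0.0153).

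The INSIG genes again went opposite ways. Insig1 was at 53.0, 90.3 and 51.3 CPM in lipid-laden MDM (-0.93, SE 0.27, edgeR adjusted p = 0.0434). Lipid-laden library 224 reached the level of non-lipid-laden library 718, at 89.1 CPM, so the groups overlapped. Insig2 was at 80.5, 44.2 and 62.2 CPM, above the 39.2 CPM of the highest non-lipid-laden library (0.97, SE 0.27, edgeR adjusted p = 0.0357). The number of called members fell from 6 to 3 without lipid-laden MDM library 221, without lipid-laden MDM library 718 or without non-lipid-laden MDM library 224. Insig1, Insig2 and Lbr then lost their calls, with edgeR adjusted p of 0.109 to 0.174, 0.0837 to 0.164 and 0.0516 to 0.0852. Over all 15 fits with a library left out, the call of Insig1 held in only 7, that of Insig2 in 10 and that of Lbr in 12. Insig1 was also lost without non-lipid-laden MDM library 221 or 431, lipid-laden microglial library 431 or 718, or non-lipid-laden microglial library 718, and Insig2 without non-lipid-laden MDM library 431 or 718.

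Several members that did not pass had sizeable values. Dhcr7 was at 34.0, 50.6 and 29.5 CPM in lipid-laden MDM and at 24.3, 17.8, 10.3 and 18.8 CPM in non-lipid-laden MDM, with no overlap (1.10, SE 0.39, edgeR adjusted p = 0.0947). Hmgcs1, the synthase that makes HMG-CoA, was at 68.3, 57.8 and 42.5 against 49.9, 44.1, 32.7 and 37.1 CPM, with overlap (0.46, SE 0.25, edgeR adjusted p = 0.29). Fdft1, squalene synthase, averaged 13.9 ± 4.81 against 26.6 ± 6.67 CPM (-0.94, SE 0.33, edgeR adjusted p = 0.0907). Mvd (-0.78, SE 0.29), Idi1 (-1.21, SE 0.57) and Stard4 (-1.29, SE 0.69) had negative values, with edgeR adjusted p of 0.119, 0.223 and 0.285. For Mvd and Idi1 the groups did not overlap, while for Stard4 they did. Mbtps2 was at 27.5, 43.5 and 12.8 CPM against 13.2 ± 0.642 CPM, so library 718 was at the non-lipid-laden level (1.08, SE 0.43, edgeR adjusted p = 0.136). The other members (Acat1, Acat2, Mvk, Ggps1, Sqle, Lss, Tm7sf2, Msmo1, Nsdhl, Hsd17b7, Ebp, Sc5d, Scap and Mbtps1) had values from -0.58 to 0.12 and edgeR adjusted p of 0.386 or more. Among them only Sc5d had no overlap, at 44.7, 42.0 and 38.4 CPM in lipid-laden MDM against at least 51.5 CPM (-0.49, SE 0.31).

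Exons of Fdft1 share 18.3% of their bases with exons of the cathepsin gene Ctsb on the opposite strand, which held 1178363 counts over all libraries against 2643 for Fdft1. Without a stated strand setting, reads of Ctsb and Fdft1 cannot be told apart there. Ctsb moved opposite to Fdft1, at 10900 ± 640 CPM in lipid-laden and 4960 ± 357 CPM in non-lipid-laden MDM (1.13, SE 0.11, edgeR adjusted p = 3.76e-05).

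Cell type markers also moved in this comparison, and their part in the results was not tested. Of 10 microglia markers 9 rose in lipid-laden MDM, of 10 MDM markers 4 fell, of 10 dendritic cell markers 6 fell, and 10 of 12 cell cycle genes rose. Of 10 glioma and progenitor markers 5 rose (median log2 fold change 3.12), and of 8 astrocyte markers 2 rose (median 1.94). Of 12 hypoxia and glycolysis genes 2 fell. The MDM marker sum in lipid-laden MDM was 1320 to 1660 CPM. It lay below the 3170 to 3860 CPM of non-lipid-laden MDM and above the highest microglial library (734 CPM). Their microglia marker sum, 7140 to 10800 CPM, lay within the range of lipid-laden microglia (6660 to 17400 CPM). Whether lipid-laden MDM libraries hold a mixture of cells was not tested. Cyp51 (38.2 to 54.4 CPM) and Srebf2 (10.9 to 18.1 CPM) overlapped the microglial ranges of 18.7 to 41.8 and 7.84 to 20.4 CPM.

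**Figure D3:**
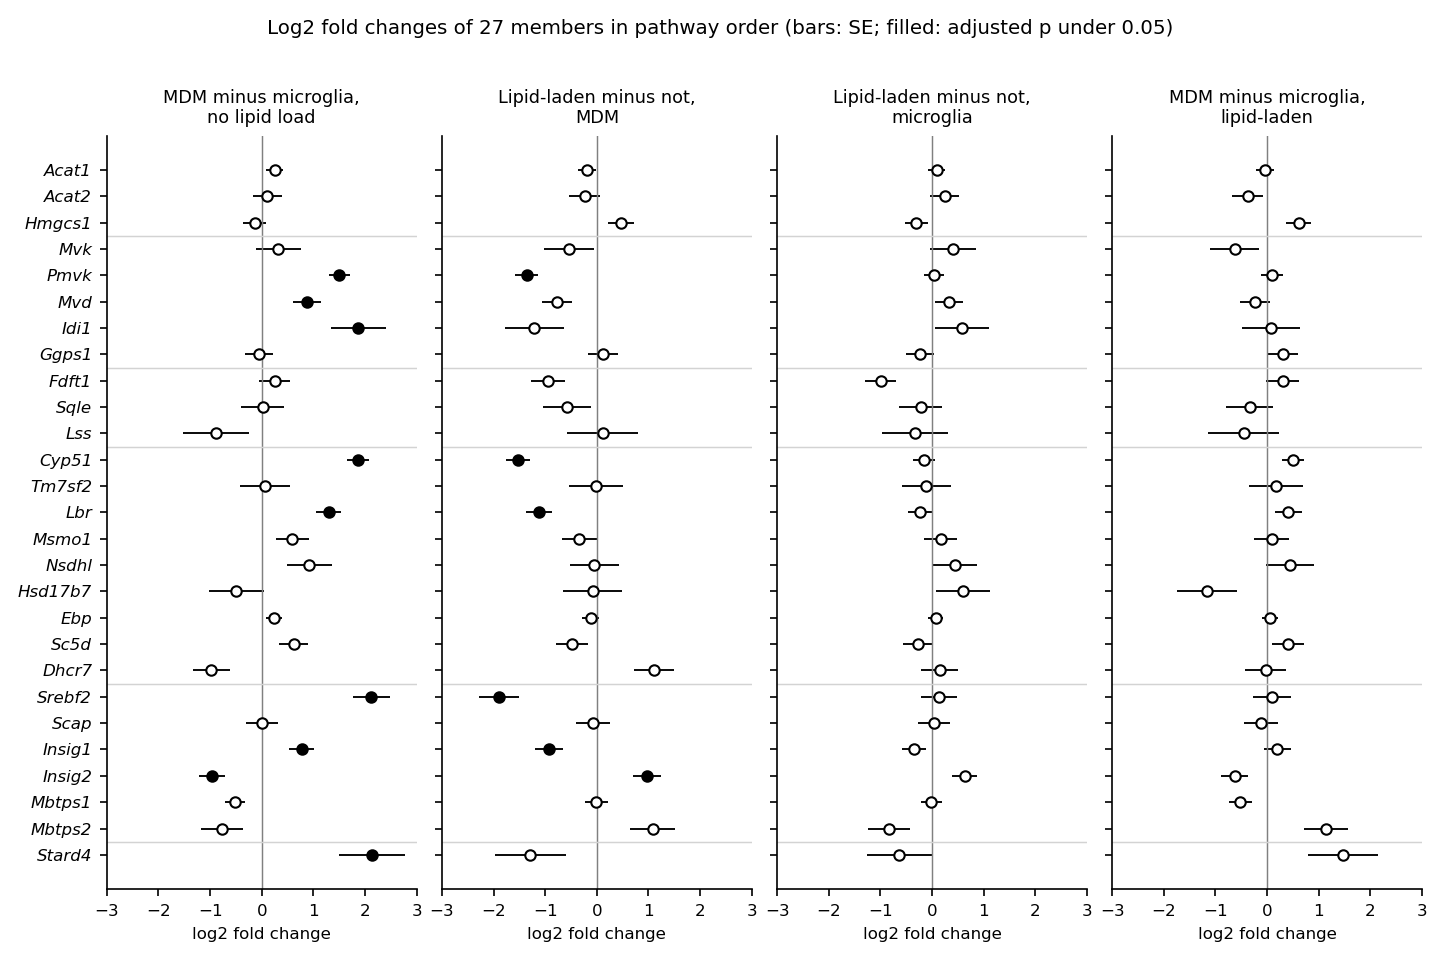
Log2 fold change and SE of 27 members (all but Fdps) in 4 comparisons, ordered from acetyl-CoA (top) to cholesterol, then the control circuit and Stard4, with grey lines between steps; filled points have an edgeR adjusted p under 0.05. The 9 filled points of the left panel and the 6 of the next have opposite signs gene by gene where both are filled, and the 2 right panels have none.

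Lipid-laden and non-lipid-laden microglia were compared for the effect of lipid load in resident cells. No member was called, and neither was any other gene (0% of 14843 genes in the edgeR fit, smallest adjusted p 0.0717; 1367 genes passed 0.05 before adjustment). DESeq2 called 169 genes, limma-voom called 0, and edgeR with the replicate number as a block called 119 (0.802%). None of these 4 fits called a member. In the edgeR fit, 2 members had an unadjusted p under 0.05, Fdft1 and Insig2. The median over the members was 0.01 (14 of 28 positive), beside -0.02 over all genes.

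Fdft1 was at 8.13, 12.7, 10.5 and 13.8 CPM in lipid-laden and at 24.3, 19.7, 26.1 and 19.8 CPM in non-lipid-laden microglia. It was lower in 4 of 4 pairs without overlap (-0.99, SE 0.30, edgeR adjusted p = 0.324, and 0.202 with the block). Ctsb, which overlaps it, was at 9830 ± 580 and 8470 ± 975 CPM there. Insig2 was at 133, 82.1, 95.1 and 75.5 CPM in lipid-laden and at 90.2, 56.2, 44.3 and 58.3 CPM in non-lipid-laden microglia. It was higher in 4 of 4 pairs, by log2 ratios of 0.56, 0.54, 1.10 and 0.37, while the groups overlapped (0.63, SE 0.25, edgeR adjusted p = 0.443). With the block the edgeR adjusted p was 0.0995, and with the block in DESeq2 and limma-voom it was 0.00884 and 0.0477, the last 2 fits chosen after seeing the data. Over all its alternatives it ran from 0.00884 to 0.75. Insig1 was lower in 4 of 4 pairs, by -0.22 to -0.55, and did not pass (-0.35, SE 0.24, edgeR adjusted p = 0.727). Mbtps2 was higher in 1 of 4 pairs and did not pass either (-0.83, SE 0.40, edgeR adjusted p = 0.554).

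Of the 12 hypoxia and glycolysis genes 11 had positive values between these microglial groups (median 0.74), none called in edgeR and 6 called higher with the block. The 10 dendritic cell markers had a median of -1.95, with none called and 1 called lower with the block. The part of these lists in the values of Fdft1 and Insig2 was not tested.

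The genes that separated non-lipid-laden MDM from the rest had small values here. Lbr had a value of -0.23 (SE 0.24, edgeR adjusted p = 0.868). Cyp51 averaged 31.1 ± 9.88 CPM in lipid-laden against 34.8 ± 2.99 CPM in other microglia (-0.16, SE 0.21), Pmvk at 47.5 ± 10.2 and 46.1 ± 7.41 CPM (0.04, SE 0.19) and Srebf2 at 12.7 ± 5.30 and 11.6 ± 3.52 CPM (0.13, SE 0.35), each with an edgeR adjusted p of at least 0.904. Among non-lipid-laden microglia, library 221 was the highest of the 4 in Dhcr7 (63.7 CPM against 20.2 to 31.3), Sqle (62.3 against 14.1 to 29.3) and Msmo1 (76.5 against 19.2 to 46.6).

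**Figure D4:**
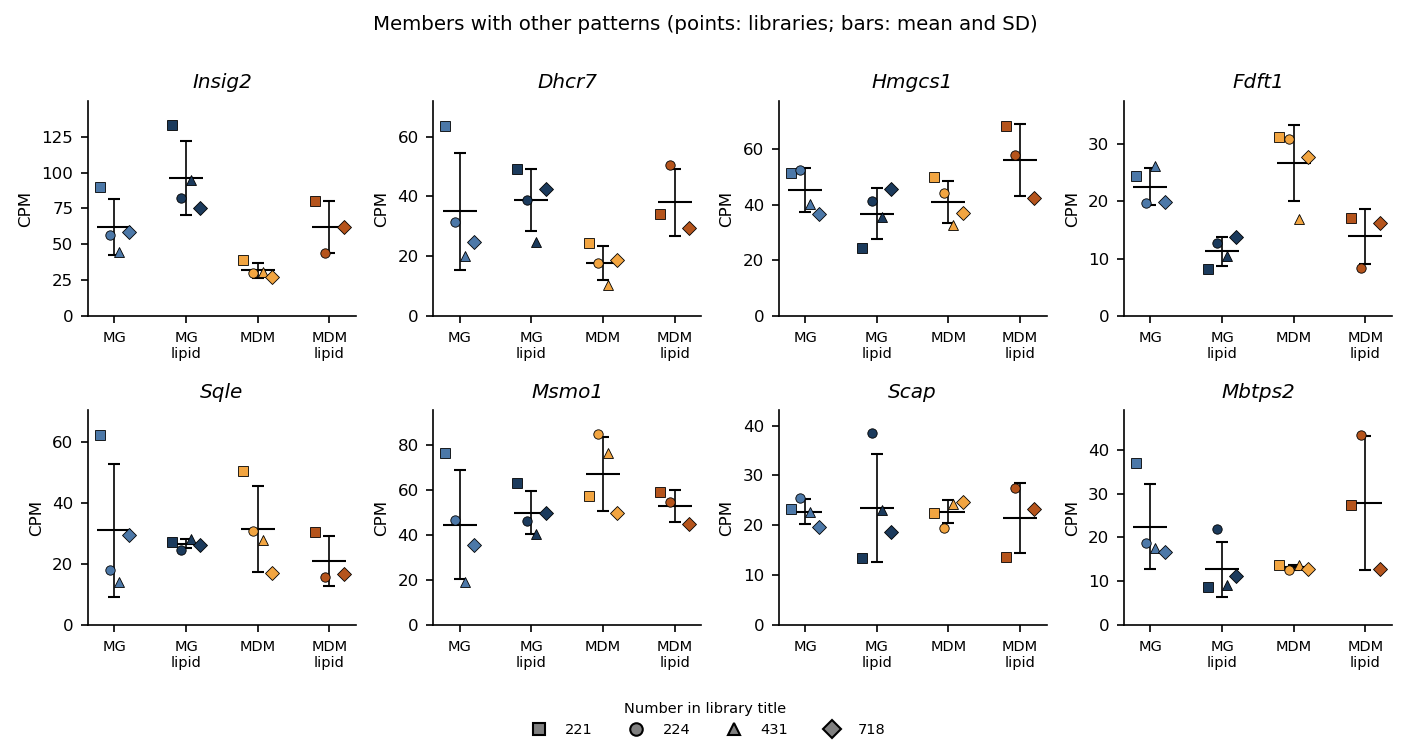
Level in CPM (linear axis from 0) of 8 members with other patterns in each library (points, shaped by library number), with the group mean and SD (bars). Insig2 is lowest in non-lipid-laden MDM (27.4 to 39.2 CPM), and Sqle, Msmo1, Dhcr7 and Mbtps2 are highest among non-lipid-laden microglia in library 221.

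The difference of the lipid-load effect between origins was tested directly as an interaction. It was called for 3 of 28 members, all with a more negative effect in MDM, while 0.93% of all genes were called in that direction and 1.6% in the other (2.53% in all). Pmvk had an effect of -1.36 in MDM and 0.04 in microglia (difference -1.40, SE 0.29, edgeR adjusted p = 0.0153), and its call held in all 23 alternative fits. Cyp51 had -1.53 and -0.16 (difference -1.36, SE 0.31, edgeR adjusted p = 0.0291). The call of Cyp51 held in 17 of 23 fits, with adjusted p up to 0.0905. Srebf2 had -1.90 and 0.13 (difference -2.03, SE 0.52, edgeR adjusted p = 0.0493), and its call held in only 6 of 23 fits, with adjusted p up to 0.121. Insig2 had positive effects in both origins, 0.97 and 0.63, and their difference did not pass (0.34, SE 0.37, edgeR adjusted p = 0.717). Mbtps2 had 1.08 in MDM and -0.83 in microglia (difference 1.91, SE 0.59, edgeR adjusted p = 0.0985). In the same interaction 8 of 10 microglia markers were called higher (median 1.96), 3 of 10 MDM markers lower and 4 of 12 hypoxia and glycolysis genes lower, and their part in these differences was not tested. The count of 3 members fell to 1 without MDM library 224 or 718 with lipid load, without microglial library 431 or 718 with lipid load, or without microglial library 224 or 718 without lipid load.

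Lipid-laden MDM and lipid-laden microglia were compared last. No member was called, while 2.2% of all genes were higher and 0.579% lower in MDM (2.78% in all). At an unadjusted p under 0.05 there were 4 members higher (Mbtps2, Hmgcs1, Cyp51 and Stard4) and 2 lower (Mbtps1 and Insig2). Over all genes, 2188 of 14843 passed that unadjusted threshold. DESeq2, limma-voom and edgeR with the block each called 0 members as well, but the block in DESeq2 and in limma-voom, both chosen after seeing the data, each called Insig2. It was at 80.5, 44.2 and 62.2 CPM in MDM, below its pair in 3 of 3, and at 133, 82.1, 95.1 and 75.5 CPM in microglia, with overlap (-0.63, SE 0.27, edgeR adjusted p = 0.287). The adjusted p was 0.0561 with the block in edgeR, 0.00629 in DESeq2 and 0.0219 in limma-voom. Of 12 hypoxia and glycolysis genes 6 were called lower in MDM here (10 with the block), of 10 MDM markers 6 higher and of 10 dendritic cell markers 7 higher, and their part in these values was not tested. Mbtps2 was at 27.5, 43.5 and 12.8 CPM in MDM and at 8.74, 21.9, 9.06 and 11.1 CPM in microglia (1.14, SE 0.43, edgeR adjusted p = 0.21). Hmgcs1 was at 68.3, 57.8 and 42.5 CPM in MDM and at 24.5, 41.5, 35.8 and 45.6 CPM in microglia, with overlap (0.61, SE 0.25, edgeR adjusted p = 0.25). Hsd17b7, a ketosteroid reductase of the late pathway, had the most negative value (-1.17, SE 0.58, edgeR adjusted p = 0.371). Srebf2 (0.09, SE 0.37) and Pmvk (0.10, SE 0.21), which differed between the origins without lipid load, had edgeR adjusted p of 0.959 and 0.899 here. Cyp51 averaged 44.1 ± 8.97 CPM in MDM against 31.1 ± 9.88 CPM (0.50, SE 0.22, edgeR adjusted p = 0.307).

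Averaged over the 28 members, the mean log2 CPM was 4.62 to 5.12 in non-lipid-laden MDM and 4.38 to 4.60 in lipid-laden MDM. It was 4.28 to 4.82 in non-lipid-laden and 4.31 to 4.57 in lipid-laden microglia. Non-lipid-laden MDM thus lay above both lipid-laden groups in this mean. They overlapped non-lipid-laden microglia through microglial library 221 alone (4.82, against 4.28 to 4.41 in the others). Library 718 was the lowest in each MDM group. The mean also holds the control circuit, Stard4 and the sparse Fdps.

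Other genes of sterol handling, from lists of pathway knowledge, were compared in the same fit, in 4 lists. Their counts stand beside 10.7% of all genes higher and 12.5% lower by origin without lipid load, and 5.21% higher and 2.96% lower for lipid load in MDM. The 10 genes of the response to excess sterol included targets of LXR. Of the 10, 3 rose in lipid-laden MDM and none fell: Abca1, the cholesterol efflux transporter (1.32, SE 0.17, edgeR adjusted p = 0.000242), Abcg1, another efflux transporter (0.97, SE 0.16), and Lpcat3, a phospholipid remodelling enzyme (0.95, SE 0.21). Abca1 was at 252 ± 7.92 CPM in non-lipid-laden and 630 ± 185 CPM in lipid-laden MDM. In non-lipid-laden MDM against microglia, 4 of the 10 were lower, Abca1 (-1.12, SE 0.16), Abcg1 and Lpcat3 among them, and 1 was higher, the LXR gene Nr1h3 (3.68, SE 0.74, edgeR adjusted p = 0.00198). The lipid-load effect on Abca1 was larger in MDM than in microglia, where it was 0.22 (difference 1.10, SE 0.23, edgeR adjusted p = 0.019). Between the lipid-laden groups, Nr1h3 was higher in MDM (2.99, SE 0.73) and the desaturase gene Scd2 lower (-0.83, SE 0.16), with edgeR adjusted p of 0.0385 and 0.0104. No gene of these 4 lists was called for lipid load in microglia without the block. With it, 2 were, Scd2 (0.64, SE 0.12, edgeR adjusted p = 0.0287) and Mylip (-0.53, SE 0.11, edgeR adjusted p = 0.0392), against adjusted p of 0.141 and 0.57 without. Of 12 sterol trafficking genes, 4 rose in lipid-laden MDM and none fell. They were the lysosomal cholesterol exporters Npc1 (1.14, SE 0.18) and Npc2 (0.40, SE 0.11), the lysosomal lipase gene Lipa (0.93, SE 0.20) and the sterol transfer gene Gramd1b (1.19, SE 0.30), with edgeR adjusted p of 0.00109 to 0.0389. In the comparison by origin without lipid load, 3 of the 12 were lower in MDM (Mylip, which stands in both lists, Npc1 and Gramd1a) and Stard5 was higher.

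Of 13 genes for sterol sensing and turnover of the pathway's proteins, Erlin1 alone was called in the comparison by origin without lipid load, and none in the 4 other contrasts. Erlin1, which helps to hold SREBP2 in the endoplasmic reticulum and to degrade INSIG-bound proteins, averaged 86.3 ± 25.5 CPM in MDM against 34.7 ± 11.4 CPM in microglia (1.31, SE 0.36, edgeR adjusted p = 0.0146). Of 12 genes that use isoprenoids, Pdss1 of coenzyme Q synthesis (-1.16, SE 0.36) and Rabggtb, a prenyltransferase subunit (-0.60, SE 0.19), were lower in non-lipid-laden MDM than in microglia. That is 16.7% of the list, near the 12.5% of all genes. Their edgeR adjusted p were 0.0315 and 0.0364. None of the 12 was called for lipid load in either origin.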

How the data were processed

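The data were 15 bulk RNA-seq libraries of sorted glioma macrophages, in 1 table of read counts per gene that the authors deposited without normalization. Per the labels' protocols, RNA was extracted with an RNeasy Micro kit and DNase, and cDNA was primed with oligo-dT and completed by template switching. Per the submitters' processing notes, reads were placed on mm10. Not given in the sources used here are the aligner, the counter and the strand setting. A row with no gene name held 0 counts and was left out. The lipid-laden MDM library numbered 431 was not analysed here.

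Groups came from the sample titles. Counts were fitted with edgeR 4.0.16 (R 4.3.3; TMM scaling, filterByExpr with a minimum count of 10 and a minimum total of 15, quasi-likelihood test, 1 fit of 15 libraries with no covariate), and 14843 of 55486 genes were tested. P-values were two-sided and Benjamini-Hochberg adjusted over those genes with a threshold of 0.05. The script was tested on simulated counts. The alternatives were DESeq2 1.42.0, limma-voom (limma 3.58.1), no filter, upper-quartile scaling, a replicate block, and each library or both lipid-laden libraries numbered 221 left out.

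The members and gene lists were chosen with earlier results of these data known. All members are described, with values per library for those called in any of 5 contrasts and for the 2 of smallest p where a contrast called none. From each other list, up to 4 called genes of smallest p per contrast are named. Same-numbered libraries deviated together with correlations of 0.121 to 0.24 between the microglial groups (n = 4 pairs) and 0.105 to 0.158 between the lipid-laden groups (n = 3 pairs). They did so with only 0.0218 to 0.105 between the MDM groups and 0.0121 to 0.138 between the non-lipid-laden groups. The titles give the same numbers, after the prefix mn, in every group, and what they mark is not stated. Pairs are described in the first pair of comparisons only, where the lowest of these correlations was higher. These correlations cannot settle which groups are paired. The main fit held no block in any comparison, and the fit with a block covered all 5 contrasts.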

Additional observations from a re-analysis of the deposited data

Results flagged for a closer look

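The difference of the lipid-load effect between origins was called for Srebf2 (-2.03, log2 scale, MDM minus microglia), Pmvk (-1.40) and Cyp51 (-1.36), tested as an interaction in the edgeR fit. In each the MDM effect was the more negative. Of 23 alternative fits the call held in 23 for Pmvk, 17 for Cyp51 and only 6 for Srebf2. Of 10 microglia markers 8 were called higher in the same interaction, and their part was not tested.

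In 4 of the 84 sets of 4 libraries (28 members in 3 groups) a single library stood far from the others, and chance alone would mark about 1 in 20 sets. Non-lipid-laden microglial library 221 was at 37.0 CPM for Mbtps2 (others 16.7 to 18.8), at 75.1 CPM for Ggps1 (others 28.6 to 33.3) and at 12.7 CPM for Mvk (others 9.03 to 9.59). Non-lipid-laden MDM library 431 was at 4.03 CPM for Fdps (others 0.101 to 0.544).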

How the results depend on the processing

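No called result reversed under any of the 23 alternatives. Among uncalled members, signs turned under upper-quartile scaling for 3 by origin without lipid load, 2 for lipid load in MDM and 1 for the difference of effects, and under DESeq2 for 1 for lipid load in microglia, while Fdps had no value where leaving out a library took it below the filter. Adding a replicate block to edgeR gave 657 genes for the difference of lipid-load effects (375 without) and 119 for lipid load in microglia (0 without). For members the block gave 7 calls for lipid load in MDM (10.3% of all genes; adding Dhcr7, adjusted p = 0.0489) and 11 by origin without lipid load (26.7% of all genes; adding Nsdhl, adjusted p = 0.0468, and Dhcr7, adjusted p = 0.0171). DESeq2 called 964 genes for the difference of effects, 1955 for lipid load in MDM, 169 for lipid load in microglia and 798 between lipid-laden groups. Of the last, 64.5% were higher in MDM against 79.2% in edgeR. Without the filter 17 genes were called for lipid load in microglia. Chosen after seeing the data, the block in DESeq2 called 1565, 2552, 590 and 1204 genes and 6, 10, 1 and 1 members in those 4 contrasts. The block in limma-voom, likewise added, called 1025, 2089, 212 and 992 genes, and 1 member each for lipid load in microglia and between lipid-laden groups. Without both lipid-laden libraries numbered 221, 3 members were called for lipid load in MDM. The cause of these differences was not tested.

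With each library left out in turn, member calls ran from 1 to 3 for the difference of effects, 3 to 7 for lipid load in MDM, 7 to 10 by origin without lipid load, and 0 to 0 for both other contrasts. Calls over all genes ran from 186 to 452, 657 to 1383, 2755 to 3674, 0 to 64 (lipid load in microglia) and 168 to 431 (between lipid-laden groups). Depth limits Fdps, with 88 counts in all.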
